A study of Mus musculus with 12 samples.

Results

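Introns that mouse cumulus cells either kept in or spliced out of an assembled transcript were compared between cells given FSH and FBS for 18 hours and untreated cells. The deposited tables list a retained intron as a pair of events. The ON form is an exon that runs through the intron, and the OFF form is the pair of exons with the intron spliced out. An intron was a member when its ON and OFF forms matched in chromosome, start, end, strand and reference gene and their summed level was at least 1 FPKM (fragments per kilobase and per unit of mapped fragments, the authors' value for an event) in all 6 libraries. Of 8992 single-intron retention events listed in any library, 1901 in 1405 host genes met this rule. Counting also events of which one form was never listed would give 2378, and those were not used. The retained share of an intron in a library is ON/(ON + OFF) in percent, and a form missing from a table counts as 0.

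The mice were of the Kunming strain, and the labels call the source cumulus cells and the cell type granulosa cells in antral follicles. Each group held 3 libraries, FSH_FBS and untreated. FSH is the pituitary hormone that acts on granulosa cells, and FBS is a serum supplement from fetal calves. The treated cells had both, and no culture time is given for untreated cells, so FSH, FBS and time in culture cannot be told apart. The study concerns cumulus expansion and apoptosis, and its design also describes complexes without their oocyte. Whether untreated cells were from such complexes is not given, and no animal, culture or pool is named.

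Most introns leave the transcript while it is being made. A retained intron can hold the transcript in the nucleus until splicing is completed, or expose it to nonsense-mediated decay when it carries a premature stop codon into the cytoplasm. Genes of the splicing machinery itself, the SR proteins and the CLK kinases that phosphorylate them, are known from other tissues for such introns. Short introns and introns of high GC content are known to be retained more often.

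Sequences were taken from RefSeq (GRCm38.p6). They show where the listed introns begin and end, and which of them carry a microRNA. The 7 splice sites that fell inside a RefSeq promoter window all had the canonical bases (7 of 7 sites, GT at the start or AG at the end of the intron). In the following 4 runs of 30 bases, read 5′ to 3′ on the gene's strand, the capitals are those 2 bases. The first 2 runs are starts of introns with 10 exon bases before them, and the last 2 are ends of introns with 10 exon bases after them.
Vegfa, chr17:46024521-46025346, minus strand: caccatgcagGTgggcacctgcggcacagg
Rnaseh2a, chr8:84965994-84966085, minus strand: gagccgattgGTcagcatcaagagccactg
Nfkb1, chr3:135608296-135612413, minus strand: ttcccttcctgtaaatacAGacaaagagga
Col20a1, chr2:181015610-181015689, plus strand: tctgatgtctccttccccAGcacatgtgct
The intron of Rnaseh2a, a subunit of ribonuclease H2, stood at a retained share of 99.5% to 100% in all 6 libraries. The ON forms of the Vegfa, Nfkb1 and Col20a1 introns were listed in untreated libraries 1 and 2 only.

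Hairpins of 8 microRNAs lay inside member introns on the same strand, 5 of them ended exactly at the 3′ splice site, and 1 of these filled its intron from end to end. That one, Mir7068, occupies the whole 74-base intron of Cherp (chr8:72470016-72470089, minus strand), the arrangement called a mirtron, in which splicing takes the place of the first cut of microRNA processing. The capitals in its hairpin are its first and last 2 bases, which are also the bases at the 2 ends of the intron.
Mir7068 hairpin: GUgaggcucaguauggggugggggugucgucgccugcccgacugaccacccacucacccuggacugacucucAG
The retained share of this intron was 0% in all 3 FSH and FBS libraries and 13.2%, 19.3% and 0% in untreated libraries 1 to 3, so the groups met at 0. In 2 of the 8 host introns every FSH and FBS value lay below every untreated value, set against 14.7% of all introns. The mature microRNAs of these 2 are given with the seed (bases 2 to 8) in capitals.
mmu-miR-5125, in the intron of Srrm2: uCUGCCUGggauuuccuugu
mmu-miR-3101-5p, in an intron of Rab4b: gGUACCAUugacuaaagcuag
mmu-miR-3101-3p, in an intron of Rab4b: uAGCUUUGguggauggucuuu
The 14 mature microRNAs of the 8 hairpins had 14 different seeds, so no 2 of them shared one. Mean share was lower after FSH and FBS in 8 of the 8 host introns, where 78.5% of all introns were lower. In Ints1, 1 of the 8, the means were close, at 3.25% against 3.72%. The levels of the microRNAs themselves were not analysed here.

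Values below are given in the order of libraries 1 to 3, FSH and FBS first. The tables hold FPKM and no read counts, so the depth of a library and the counting error of a share are unknown. On the log2 ratio of the 2 forms, libraries 1 and 2 of each group were closer to each other than to library 3. The median difference in log2(ON/OFF), each form with 0.5 added, was 0.37 between FSH and FBS libraries 1 and 2 against 0.87 to 0.90 to library 3, and 0.60 against 0.94 to 1.01 in untreated cells. On the share itself, FSH and FBS libraries 1 and 2 differed by a median of 1.52 percentage points, against 1.25 and 1.39 to library 3. Untreated libraries 1 and 2 differed by 5.21 points, against 6.67 and 8.91. Where both forms were listed in all 6 libraries, these were 2.2 against 3.5 and 4.4, and 3.0 against 3.8 and 4.6. Libraries 1 and 2 were averaged as 1 sample, a choice made from earlier results of these data, which leaves n = 2 per group. ON forms were listed for 1316, 1330 and 718 of the 1901 introns after FSH and FBS and for 1552, 1741 and 1148 in untreated cells. FSH and FBS library 3 listed the fewest, and untreated library 3 listed fewer than FSH and FBS libraries 1 and 2. Summed over 25 oocyte markers the level was 8.09, 7.77 and 38.7 FPKM against 34.1, 36.9 and 46.1 FPKM, and over 10 theca and stroma markers 19.2, 18.5 and 24.5 against 81.7, 80.7 and 65.8 FPKM. Granulosa markers summed to 1325 to 1516 and 1507 to 1687 FPKM, with Fshr, Inha and Nr5a1 listed in all 6 libraries, Cyp19a1 only in FSH and FBS libraries 1 and 2, and Foxl2 and Inhbb in none. Single granulosa markers moved in both directions within these sums. Wt1 was at 0.42, 0.14 and 0.0063 against 8.0, 9.0 and 3.7 FPKM, and Gja1 at 446.5, 447.7 and 240.4 against 968.2, 994.7 and 709.0 FPKM. Serpine2 was higher, at 489, 384 and 632 against 150, 186 and 162 FPKM, and so was Hsd17b1. Kitl was unlisted in FSH and FBS library 3. Of the defining oocyte genes, Gdf9 was at 0.260, 0.157 and 8.77 FPKM against 4.16, 5.10 and 6.06 FPKM, and Zp3 was listed in untreated libraries only. Tle6 went the other way, at 5.56, 4.62 and 7.42 against 1.49, 2.17 and 4.24 FPKM, and with Kit (2.27, 2.96 and 0 against 1.17, 1.72 and 0.600 FPKM) made up most of the oocyte sums of FSH and FBS libraries 1 and 2. The part of these cells in the results was not tested, and in bulk RNA fewer cells of a type and less RNA per cell cannot be told apart.

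Retained shares lay lower in the FSH and FBS libraries than in the untreated ones. The mean share over the 1901 introns was 12.1%, 11.98% and 7.195% after FSH and FBS and 17.9%, 19.7% and 14.7% in untreated cells, so every FSH and FBS library lay below every untreated library. As samples this was 9.62% ± 3.43 against 16.8% ± 2.88 (SD, n = 2), a difference of -7.14 percentage points. The two-sided exact permutation test gave p = 0.333, the smallest that this test allows with 2 samples against 2, so it cannot fall below 0.05 here. Without FSH and FBS library 3 the difference was -4.72 percentage points, and without untreated library 3 it was -9.18.

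**Figure D1:**
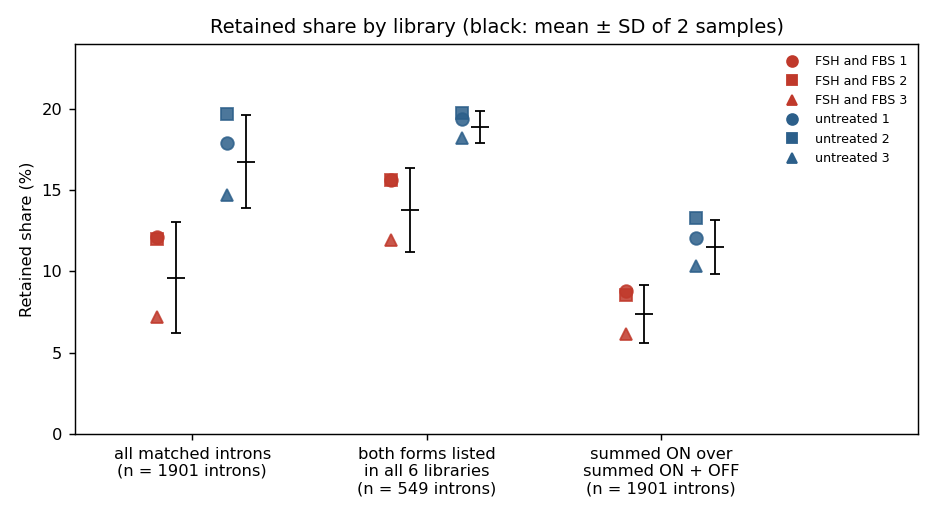
Retained share (%, y axis) in each of the 6 libraries for all 1901 introns, for the 549 introns with both forms listed everywhere, and as summed ON over summed ON + OFF FPKM. Red is FSH and FBS, blue is untreated, symbols are libraries, black bars are mean ± SD of 2 samples. In all 3 measures the red points lie below the blue ones.

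The same order held where no value rested on an unlisted form. In the 549 introns (28.9%) with both forms listed in all 6 libraries, mean share was 15.6%, 15.6% and 11.96% against 19.4%, 19.8% and 18.2%. These samples had means of 13.8% ± 2.60 and 18.9% ± 0.974 (SD, n = 2). Summing FPKM before dividing gave 7.401% ± 1.79 against 11.5% ± 1.66. Mean ON level was 2.34, 2.26 and 2.07 FPKM against 3.41, 3.65 and 2.66 FPKM, again without overlap. Mean OFF level was 24.3, 24.2 and 31.7 FPKM against 24.8, 23.8 and 23.1 FPKM, and there the groups overlapped.

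Most introns were retained in a small part of their transcripts. The median share was 1.57%, 1.58% and 0% after FSH and FBS and 9.35%, 12.3% and 0.703% in untreated cells, and untreated library 3 lay below FSH and FBS libraries 1 and 2. A share of at least 50% was reached by 122, 130 and 96 introns against 201, 210 and 189. A share of at least 90% was reached by 59, 54 and 65 introns against 63, 62 and 90. The groups were apart at the 50% line and overlapped at the 90% line.

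**Figure D2:**
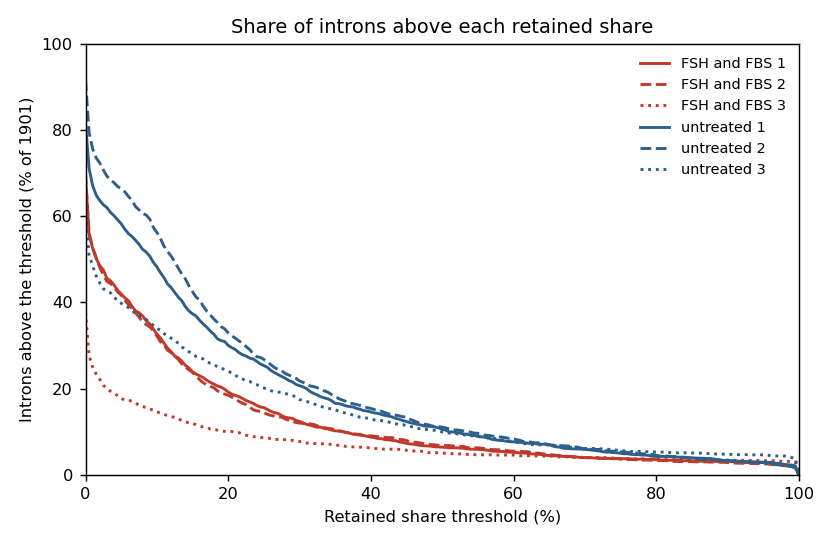
Percent of the 1901 introns (y axis) whose retained share exceeds the threshold on the x axis (%), one line per library. Red is FSH and FBS, blue is untreated. At low thresholds the line of untreated library 3 crosses those of FSH and FBS libraries 1 and 2, and at 90% the counts of 54 to 65 and 62 to 90 introns overlap.

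No single intron passed the test of the share. limma, fitted across all 1901 introns on log2((ON + 0.5)/(OFF + 0.5)) with Benjamini-Hochberg adjustment, called 0 introns higher (0%) and 0 lower (0%) at 0.05, with a smallest adjusted p of 0.384. At an unadjusted p under 0.05 it held 3 introns higher (0.158% of those tested) and 179 lower (9.42%). With untreated library 3 left out 3 introns were called lower, and with all 6 libraries counted as separate replicates 15 were. In 1492 introns (78.5%) the mean share was lower after FSH and FBS and in 408 higher, with a median of -3.73 percentage points. The median change of the log2 ratio was -0.74, and -0.61 in the 549 introns with both forms listed.

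By libraries alone, 280 introns (14.7%) in 250 host genes had all 3 FSH and FBS values below all 3 untreated values, and 11 (0.579%) had them above. Of the 549 introns with both forms listed, 109 were lower in this way and 8 higher. In 54 introns the ON form was listed in all 3 untreated libraries and in no FSH and FBS library, and in 0 introns the reverse. Leaving out a library makes the criterion easier, 2 libraries against 3, so such counts can only stay or grow. Without untreated library 3 the count of lower introns was 671, and without FSH and FBS library 3 that of higher introns was 87.

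Over all introns the median change on log2(FPKM + 1) was -0.29 for ON and 0.26 for OFF. These levels depend on scaling, with medians of -0.31 and 0.12 after median of ratios rescaling and of 0.02 and 0.01 after quantile normalization, where the ON median changes sign. In the 280 introns it was -1.10 for ON and 0.49 for OFF, values that the choice of these introns used. ON lay without overlap below in 196 of the 280, and OFF lay without overlap above in 100 and below in 9. The choice of the 280 by their share favours ON below and OFF above, so these counts do not show which form moved. limma called 0 introns higher (0%) and 0 lower (0%) for ON, and 0 and 0 for OFF (0% each). At an unadjusted p under 0.05 the counts were 3 (0.158%) and 73 (3.84%) for ON and 155 (8.15%) and 44 (2.31%) for OFF. Without untreated library 3 the ON form was called lower in 426 introns and higher in 1. That fit holds 1 untreated sample, which is assumed to vary like the other group.

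**Figure D3:**
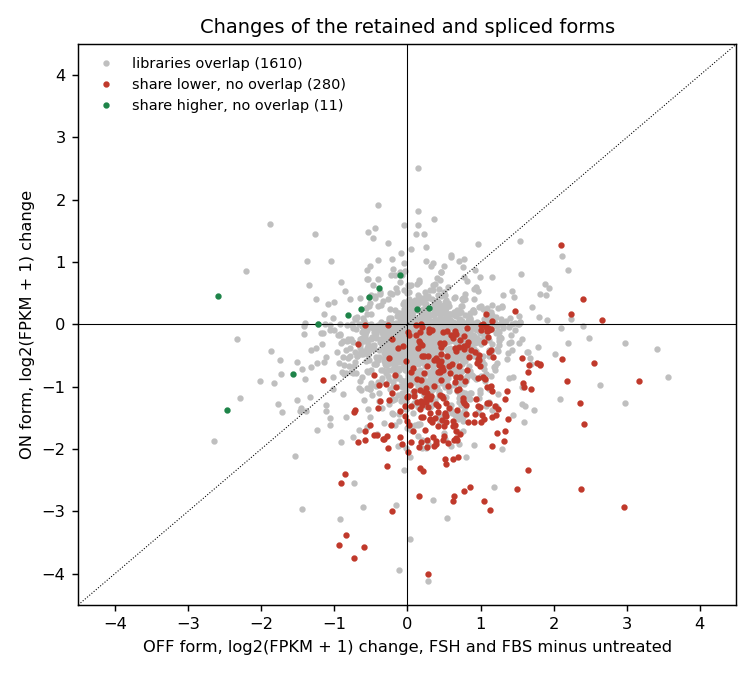
Change of the OFF form (x axis) and of the ON form (y axis) between groups, log2(FPKM + 1), FSH and FBS minus untreated, 1 point per intron. Red points are the 280 introns with lower shares and green points the 11 with higher shares in all libraries of the group, grey points the 1610 that overlap. On the dotted line both forms change equally. Most red points lie below 0 for ON and above 0 for OFF, which their choice by share favours.

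The kinases of SR proteins and cyclin L held 14 member introns in 5 of their 12 genes. In 12 of the 14 the mean share was lower after FSH and FBS, against 78.5% of all introns. All 3 FSH and FBS values lay below all untreated ones in 5 of 14, set against 14.7% over all introns, and 7 of 14 had an unadjusted p under 0.05 with a lower share, against 9.42%. The median share difference was -13.7 percentage points, against -3.73 over all introns, and 0 of them were called. Several of these introns overlap and share an ON form, so they are not separate measurements.

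Clk1, a dual-specificity kinase that phosphorylates SR proteins and is known for introns kept in a nuclear transcript, held 5 of them. For its 871-base intron (chr1:58420212-58421082, minus strand) the share was 10.9%, 1.76% and 4.12% against 82.3%, 57.9% and 59.8%. The groups lie far apart, at 5.22% ± 1.56 and 65.0% ± 7.32 (SD, n = 2). The retained form stood at 2.29, 0.408 and 0.755 FPKM against 66.9, 52.2 and 15.1 FPKM, while the spliced form stood at 18.8, 22.7 and 17.6 FPKM against 14.4, 37.9 and 10.2 FPKM. ON is separated between the groups and OFF overlaps. The log2 ratio differed by -4.72 ± 0.79 (SE), with a limma p of 0.0012 and an adjusted p of 0.384. For the neighbouring 387-base intron (chr1:58419734-58420120) the share was 0.803%, 1.76% and 4.12% against 36.0%, 33.2% and 37.4%, again without overlap.
The 1349-base intron that spans both lay at 0.827%, 1.46% and 4.56% against 41.6%, 41.7% and 20.6%. The 2 other Clk1 introns, of 899 and 87 bases nearer the 3′ end, were hardly retained in any library, with shares of at most 4.94% and 0.369%. The gene as a whole was at 43.0, 51.4 and 34.4 FPKM against 124, 129 and 64.9 FPKM, which did not pass the gene-level test (log2 change -1.15 ± 0.43, adjusted p = 0.25).

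Clk4, a kinase of the same family, held 5 introns as well. Over its 1537-base intron (chr11:51272023-51273559, plus strand) only the ON form was listed in untreated cells, a share of 100% in each library, and after FSH and FBS the share was 0%, 66.7% and 0%. Library 2 alone listed the ON form after FSH and FBS, at 6.08 FPKM against 14.4, 16.8 and 8.32 FPKM in untreated cells. This intron had the smallest unadjusted limma p of all, 0.0003, with an adjusted p of 0.384. That fit averaged FSH and FBS libraries 1 and 2, which stand at 0% and 66.7% here, so their spread does not enter it. With all 6 libraries as separate replicates the intron was not called. The introns of 1055 and 391 bases inside it were at 27.0%, 51.4% and 0% against 46.2%, 51.0% and 49.4%, and at 0%, 51.4% and 0% against 49.6%, 56.0% and 49.4%. In both of these FSH and FBS library 2 reached the untreated values. For the 1689-base intron of Ccnl1, which encodes cyclin L1, the share was 10.7%, 0.776% and 0.0162% against 19.4%, 19.1% and 15.3%, without overlap.

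SR proteins and TRA2, the factors that bind exons and recruit the spliceosome, held 12 introns in 8 genes, of which 4 were lower and 1 higher without overlap, set against 14.7% and 0.579% over all introns. In 7 of the 12 the mean share was lower, against 78.5%. Srsf7 had 4 of them. For its 874-base intron (chr17:80204388-80205261, minus strand) the share was 18.8%, 6.21% and 0% against 46.7%, 33.9% and 58.6%. For the 1377-base intron (chr17:80202745-80204121) it was 33.8%, 32.1% and 0% against 47.4%, 50.7% and 52.6%. In both, FSH and FBS library 3 listed no ON form, and libraries 1 and 2 still lay below the untreated ones. The gene itself was at 66.5, 58.4 and 47.2 FPKM against 61.7, 65.4 and 37.2 FPKM, with overlap.

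Srrm2, a large SR-repeat scaffold of the spliceosome, kept its 1090-base intron (chr17:23822701-23823790, plus strand), which carries the miR-5125 printed above, in 0%, 33.5% and 36.1% against 74.5%, 57.3% and 58.0% of its signal. The log2 ratio differed by -2.86 ± 1.12 (SE, limma adjusted p = 0.516). Srsf3 went the other way. Its 393-base intron (chr17:29040814-29041206, plus strand) was at a share of 25.8%, 30.1% and 100% against 12.1%, 17.1% and 5.02%. The ON form of Srsf3 was at 3.61, 4.69 and 2.53 FPKM against 3.55, 5.45 and 0.771 FPKM and overlapped, while OFF was at 10.4, 10.9 and 0 FPKM against 25.7, 26.4 and 14.6 FPKM and did not. The log2 ratio differed by 3.67 ± 1.39 (SE, limma adjusted p = 0.516).

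Genes known for retained or detained introns in other tissues held 28 introns in 14 of 21 genes, and these include the Clk1, Clk4, Srsf3, Srsf7 and Ccnl1 introns above. Of the 28, 10 were lower and 1 higher without overlap, 24 were lower in mean, and the median difference was -20.6 percentage points. Over all introns 14.7% were lower and 0.579% higher without overlap, 78.5% were lower in mean, and the median was -3.73 percentage points. Pnisr, an SR-related protein, kept a 1032-base intron (chr4:21870406-21871437, plus strand) at 9.70%, 0% and 0% against 36.3%, 30.6% and 42.5%. The Ogt intron of 3415 bases, in the gene of the O-GlcNAc transferase, was at 69.3%, 87.1% and 0% against 84.1%, 87.6% and 65.9%, where only FSH and FBS library 3 stands apart. Luc7l was at 43.3%, 77.5% and 51.5% against 99.99%, 99.98% and 50.4%, so untreated library 3 lay among the FSH and FBS values.

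hnRNPs, which bind introns and mostly oppose exon use, held 12 introns in 8 genes, with 0 of them apart in either direction. The Hnrnpa2b1 intron of 1355 bases (chr6:51462056-51463410, minus strand) was at 83.1%, 0% and 0% against 88.3%, 85.4% and 73.7%, so that FSH and FBS library 1 reached the untreated level. Subunits of the spliceosome held 13 introns in 12 genes, 12 of them lower in mean and 0 apart, where 78.5% and 14.7% of all introns were lower in these ways. U2af2, the factor that reads the end of an intron, was at 0%, 7.39% and 0% against 14.2%, 10.1% and 6.22%. Decay and exon junction genes held 4 introns, 4 of them lower in mean and 0 apart, with Smg6 at 0%, 0% and 0% against 13.6%, 16.8% and 0%.

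The levels of the splicing genes themselves did not pass a test. Of 113 tested genes in the lists of SR proteins, hnRNPs, spliceosome subunits, SR kinases and decay factors, limma called 0 higher and 0 lower, with 2 and 2 at an unadjusted p under 0.05. Over all 9022 genes tested it called 152 higher (1.68%) and 62 lower (0.687%), with 1093 (12.1%) and 388 (4.3%) at an unadjusted p under 0.05. The median log2 change was 0.12 in the 113 genes and 0.24 over all. With all 6 libraries as separate replicates 2 of the 113 were called lower.

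The 10 introns picked as lower were the smallest p among 224 introns with lower shares in every library and a mean total of at least 5 FPKM in both groups, and none of the 10 was called. Besides Clk1 and Clk4 they lay in 8 genes, and in 7 of these the ON form was unlisted in every FSH and FBS library. For Xbp1, the transcription factor of the unfolded protein response, the 771-base intron (chr11:5523468-5524238, plus strand) stood at 0%, 0% and 0% against 20.1%, 14.3% and 21.5%. Its spliced form was at 63.4, 58.9 and 68.6 FPKM against 28.9, 33.5 and 27.1 FPKM, so OFF was higher and ON absent from the FSH and FBS tables. The log2 ratio of Xbp1 differed by -5.03 ± 0.78 (SE, limma adjusted p = 0.384).

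Scap, the escort of the SREBP sterol regulators, kept a 368-base intron (chr9:110379833-110380200, plus strand) at 0%, 0% and 0% against 22.0%, 22.98% and 9.67%, with OFF at 81.2, 77.1 and 66.8 FPKM against 21.1, 21.8 and 23.6 FPKM. Map2k2, the ERK-activating kinase MEK2, was at 0%, 0% and 0% against 53.9%, 55.4% and 35.6%. Here the spliced forms were at 10.7, 8.80 and 27.9 FPKM against 6.31, 5.29 and 9.78 FPKM and overlapped. Agpat1, an enzyme of phosphatidic acid synthesis, was at 0%, 0% and 0% against 42.0%, 32.4% and 20.6%. Tmub2 was at 0% throughout against 44.7%, 36.1% and 35.6%, and Colgalt1, which adds galactose to collagen, at 0% against 15.7%, 16.4% and 16.4%. Actn1, the crosslinker alpha-actinin 1, was at 0% against 16.9%, 27.7% and 9.22%. For Mib2, a ubiquitin ligase of Notch ligands, the 96-base intron was at 0.0101%, 0.00182% and 0.000487% against 72.8%, 84.1% and 42.6%, so its ON form was listed in every library but at a trace after FSH and FBS.

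**Figure D4:**
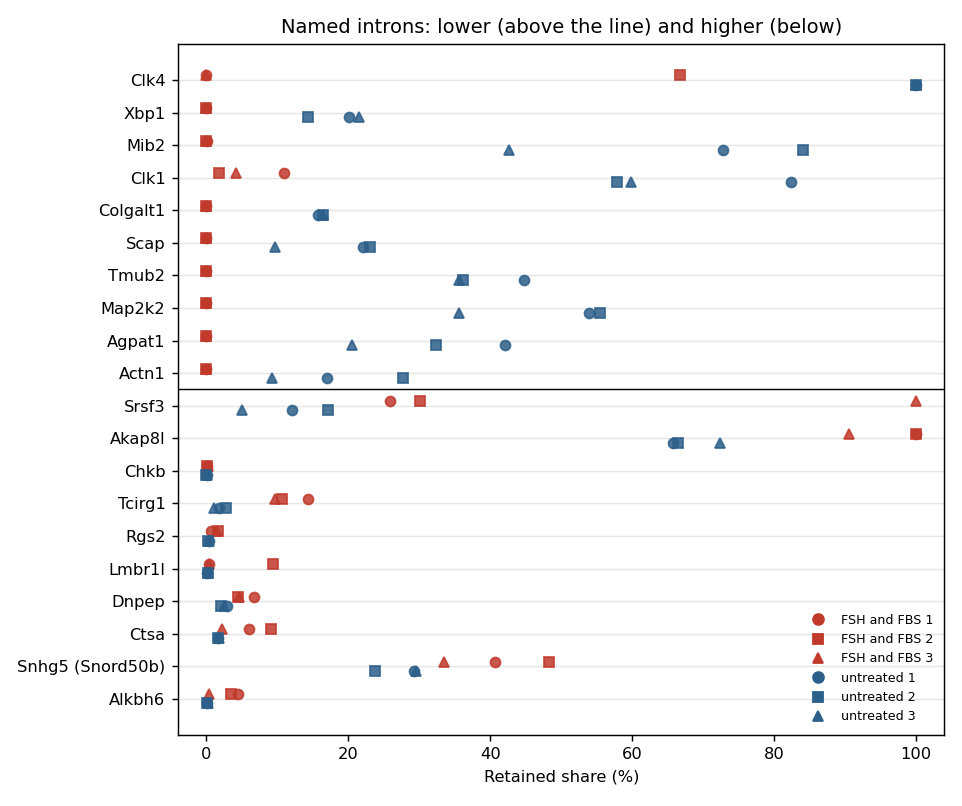
Retained share (%, x axis) of the 10 named introns with lower shares (above the line) and the 10 with higher shares (below) after FSH and FBS, one symbol per library, red for FSH and FBS and blue for untreated. Above the line most red symbols sit at 0, with FSH and FBS library 2 of Clk4 at 66.7%, and below it only Srsf3 and Akap8l exceed 50%.

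The 10 introns picked as higher came from a pool of 11, and none was called. Besides Srsf3 the highest shares were in Akap8l and Snhg5. Akap8l, a nuclear protein related to an anchor of protein kinase A, kept a 102-base intron at 100%, 100% and 90.5% against 65.7%, 66.4% and 72.4%. Its ON form was at 1.53, 3.40 and 14.5 FPKM against 15.04, 16.9 and 19.6 FPKM, so the higher share went with less of both forms. The Snhg5 intron, listed under Snord50b, was at 40.7%, 48.2% and 33.5% against 29.3%, 23.8% and 29.6%. For Tcirg1, a subunit of the vacuolar proton pump, the share was 14.3%, 10.7% and 9.63% against 1.78%, 2.81% and 1.04%, with OFF levels that overlapped. In the 6 other introns, of Rgs2, Dnpep, Ctsa, Chkb, Lmbr1l and Alkbh6, no share exceeded 9.43%.

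Highest in ON level was a 37-base stretch in Hsp90ab1, the constitutive cytosolic chaperone (chr17:45571482-45571518, minus strand). It was listed as retained at 631, 564 and 660 FPKM against 555, 553 and 439 FPKM, a share of 99.9% to 100% in all 6 libraries. Only 15 members are shorter than 70 bases. Bsg, the glycoprotein basigin, held a 115-base intron at 99.2% or more in each library. Other introns of high ON level varied between libraries of a group. Rps27a was at 16.3%, 22.5% and 100% against 21.3%, 16.8% and 100%, so both libraries 3 stood apart from the rest.

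Ddx39b, an RNA helicase of splicing and mRNA export, was the intron of highest ON level among those that separated the groups. The file lists the intron under the microRNA gene Mir8094 (chr17:35249070-35251246, plus strand, 2177 bases), and it lies within Ddx39b in RefSeq. Its share was 43.6%, 77.2% and 32.0% against 89.4%, 95.6% and 95.1%. ON was at 40.2, 62.1 and 23.8 FPKM against 115, 125 and 94.6 FPKM and OFF at 52.0, 18.3 and 50.5 FPKM against 13.7, 5.79 and 4.84 FPKM, both without overlap. The log2 ratio differed by -4.11 ± 0.95 (SE, limma adjusted p = 0.44).

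Among introns with both forms listed everywhere, the highest shares were in Anapc5, Cnbp, Eif4a1, Cdk11b, Tmem208 and Smox. Their introns are 72 to 408 bases long, and the share was above 80% in all 6 libraries for each but Smox, which was at 56.6% in untreated library 1. Over all members, 107 introns had a mean share of at least 50% and 47 of at least 90%, the latter with a median length of 119 bases.

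Within hosts of several members the introns differed widely. The 6 introns listed under Gm25789, which lie within Gas5, a noncoding RNA that hosts snoRNAs, ran from a mean share of 0.00935% to 59.9% after FSH and FBS and from 0.00311% to 67.1% in untreated cells. Of these, 3 were lower in mean, and 0 separated the groups. The 6 introns of Qars, the glutaminyl-tRNA synthetase, stayed between 0.00225% and 11.6% in group mean, with 0 apart. In Apeh 3 of 5 introns shared all their values, and the reason was not tested. Over all members, 145 introns shared all 6 ON values with another intron of their gene, and 124 overlapped one. Ciz1, a nuclear matrix protein, held a 135-base intron at a mean of 98.3% and 96.9% and an 865-base intron at 4.39%, 0.0297% and 0% against 18.1%, 12.2% and 19.1%.

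Intron length ran from 24 to 9141 bases with a median of 406. In the shortest quartile (24 to 154 bases) mean share was 16.1%, 15.8% and 12.9% against 18.9%, 18.99% and 19.5%. In the longest (1089 to 9141 bases) it was 9.32%, 9.26% and 2.66% against 17.4%, 20.4% and 9.93%, and untreated library 3 came close to FSH and FBS libraries 1 and 2. The differences of the sample means were -4.80, -7.13, -8.22 and -8.43 percentage points from the shortest to the longest quartile. For the longest quartile the difference was -5.12 without FSH and FBS library 3 and -12.9 without untreated library 3. Both forms were listed in all 6 libraries for 55.9%, 34.04%, 15.4% and 10.1% of the introns of the 4 quartiles, so fewer long introns had both forms. Among introns with both forms listed the differences were -4.29, -4.31, -7.63 and -8.33 percentage points. These are descriptions without a test.

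**Figure D5:**
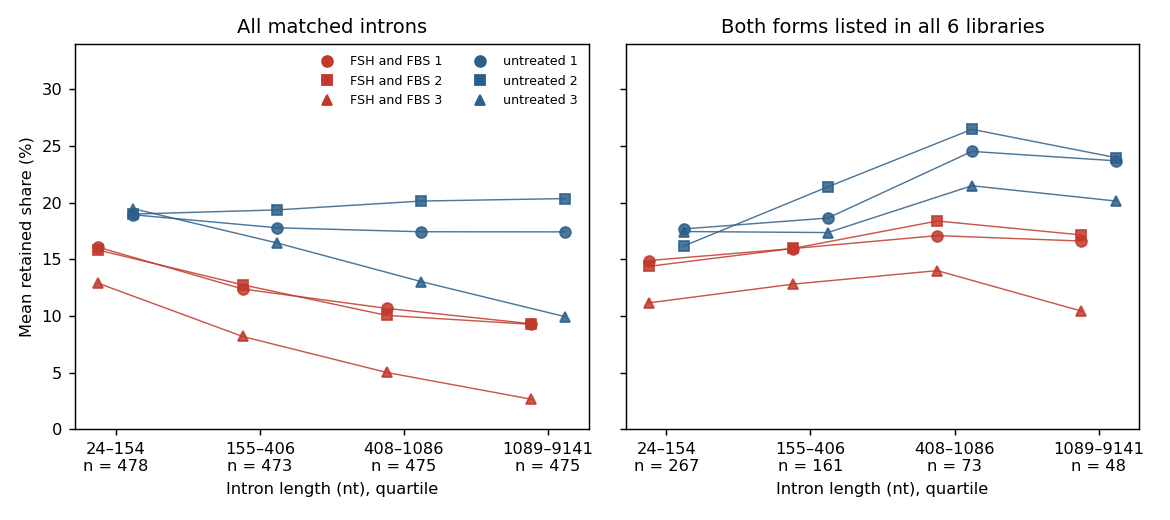
Mean retained share (%, y axis) by quartile of intron length (x axis, bases) in each library, for all 1901 introns (left) and for the 549 with both forms listed in all 6 libraries (right). Red is FSH and FBS, blue is untreated, lines join a library's values. On the left the FSH and FBS libraries and untreated library 3 decline with length, untreated library 1 declines from 18.9% to 17.4% and untreated library 2 does not decline. On the right only FSH and FBS library 3 is lowest in the longest quartile.

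Over introns, the mean share and length were barely related (Spearman's rho -0.02 and Pearson's r with log10 length -0.13 over 1901 introns, which share libraries and genes). The difference varied less with position. Members lay mostly toward the 3′ end, with 285, 602 and 1014 in the first, middle and last of 3 equal parts of the gene's listed span. The difference of mean share was -6.40, -6.98 and -7.44 percentage points in these parts. Among introns with both forms listed in all 6 libraries the order was reversed, at -5.38, -5.13 and -5.00 percentage points. Mean shares in the first were 12.2%, 12.8% and 7.42% against 17.5%, 17.5% and 15.2%. First introns (208) differed by -5.63, last introns (100) by -4.51 and the other 1601 by -7.50 percentage points. Length was a multiple of 3 in 624 introns (32.8%), and their mean share was 12.5% ± 3.42 and 18.8% ± 3.27 (SD, n = 2) against 8.21% ± 3.43 and 15.7% ± 2.69 in the rest.

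The summed level of both forms, a measure of the transcript around the intron, rose in 16 introns (0.842%) of 14 genes and fell in 4 (0.21%) by limma on log2(FPKM + 1), adjusted p under 0.05. At an unadjusted p under 0.05 the counts were 135 (7.1%) and 80 (4.21%). The introns were chosen for description after their values were seen. Mean share was lower after FSH and FBS in 15 of the 16 and in 4 of the 4, and in 78.5% of all introns. These calls depended on scaling, since 0 and 0 were called when libraries were rescaled by the median of ratios or by quantiles. They also depended on single libraries, with 2 and 1 called without FSH and FBS library 1, 4 and 1 without FSH and FBS library 2, 27 and 11 without FSH and FBS library 3, and 7 and 4 without untreated library 3. The share is a ratio within a library, so a factor applied to a whole library, as in the median of ratios, leaves it unchanged. The tested log2 ratio holds a pseudocount and can still shift. Quantile normalization is not such a factor and can change the share. After it the median changes on log2(FPKM + 1) were 0.02 for ON and 0.01 for OFF, against -0.29 and 0.26 without it. The share was not tested after either rescaling.

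Vegfa, the angiogenic factor whose splice site is printed above, had a total of 146, 150 and 60.7 FPKM against 22.96, 16.2 and 8.60 FPKM at its 826-base intron. The total rose by 2.78 ± 0.49 (log2, SE, limma adjusted p = 0.00989), and the share was 0%, 0% and 0% against 24.2%, 25.1% and 0%. Slc6a9, the glycine transporter GLYT1, had a 111-base intron at 38.7, 40.4 and 27.6 FPKM in total against 4.16, 4.32 and 3.20 FPKM, a rise of 2.86 ± 0.44 (log2, SE, limma adjusted p = 0.0036). Its share was 0%, 0% and 0% against 25.7%, 14.3% and 28.9%, so the gene's transcript was higher and its retained form unlisted. Tnc, the matrix protein tenascin C, was at 0% after FSH and FBS and at 0%, 14.2% and 27.9% in untreated cells, with a total that rose by 2.39 ± 0.42 (limma adjusted p = 0.00989).

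In Cyp11a1, the enzyme that makes pregnenolone from cholesterol, both forms were listed in all libraries. The 899-base intron was at 8.21%, 7.85% and 4.61% against 10.3%, 9.29% and 8.96%, while ON was higher at 14.4, 12.7 and 10.7 FPKM against 3.58, 3.73 and 5.26 FPKM. The total of Cyp11a1 rose by 2.06 ± 0.44 (log2, SE, limma adjusted p = 0.0295). Here a lower share went with more of the retained form, not less. Por, the reductase that supplies electrons to such enzymes, rose by 1.91 ± 0.43 in total (limma adjusted p = 0.0353), at shares of 2.38%, 5.88% and 1.81% against 7.95%, 2.65% and 4.48%, which overlap. Psrc1, a spindle protein, fell by 2.79 on the log2 scale (limma adjusted p = 0.0036), from 28.4, 35.1 and 23.7 to 3.83, 2.75 and 2.95 FPKM, with overlapping shares.

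Lists of the cells' own tasks held few members. Cumulus expansion genes held 0 introns, steroid hormone genes 2, cholesterol genes 4, stress response genes 2 and apoptosis genes 1, in Diablo. All 4 cholesterol introns were lower in mean, where 78.5% of all introns were, and 1 of the 4, that of Scap above, was lower without overlap. Aminoacyl-tRNA synthetases held 13 introns in 6 genes, 1 of them lower without overlap. Over all introns 14.7% were lower without overlap. Ribosomal proteins held 12 in 8 genes, with 3 lower without overlap at low shares, such as Rpl3, whose 403-base intron was at 2.38%, 1.06% and 0.250% against 6.61%, 5.85% and 8.41%. Nuclear-encoded respiratory chain genes held 4, 1 of them lower without overlap.

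A snoRNA lay in 14 member introns, 11 of them lower in mean and 2 without overlap, which is near the 78.5% and 14.7% over all introns, with mean shares over the 14 of 4.40%, 6.75% and 9.75% against 6.74%, 11% and 4.80%, which overlap. The intron of Rab4b with miR-3101 (264 bases, listed under Mia) was at 8.56%, 8.28% and 1.91% against 20.2%, 31.4% and 33.0%, without overlap (limma adjusted p = 0.508). Events that retain several introns at once, 324 pairs by the same rule, had mean shares of 7.48%, 8.82% and 3.25% against 14.1%, 15.1% and 8.003%. For these the highest FSH and FBS library lay above untreated library 3, unlike for single introns.

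At the 1 FPKM limit, the 21 introns whose lowest total was 1 to 1.1 FPKM had mean shares of 26.9%, 25.8% and 20.4% against 37.1%, 37.7% and 29.3%. The 25 just outside, at 0.9 to 1 FPKM, had 26.9%, 21.7% and 16.1% against 31.4%, 30.4% and 27.5%. Across members, shares and differences were larger where the total was low, at -9.56 percentage points in the lowest and -4.63 in the highest quartile of total FPKM.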

How the data were processed

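The authors deposited 1 table per library with an FPKM value for each transcript event. The submitters' processing notes name HISAT2 2.0.1 as aligner. The assembler and the build are not given in the sources used here. Coordinates are those of the files; 1900 of 1901 introns lie within a RefSeq gene of GRCm38.p6. Small-RNA libraries were not analysed here. Depth is unknown.

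Rows with the same key were summed. Positions are intron bases, counted from 1. limma 3.58.1 (R 4.3.3) was fitted across all introns, or across 9022 genes, with an intensity trend, two-sided, Benjamini-Hochberg threshold 0.05, pseudocount 0.5 for the ratio and 1 for levels; single values used an exact permutation test. Separate cultures or animals are not stated, so p-values reflect the spread among these samples alone, possibly a technical one. Members, gene lists and tests were chosen with earlier results of these data known.

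Named introns were, by rule, the 10 largest called falls and rises without overlap with a mean total of at least 5 FPKM, predicted genes left out (filled by smallest p, since none was called), the 6 highest shares, the 6 highest ON levels, up to 4 per list by p, and hosts with most members; others (among them Ogt, Luc7l and the introns with a called total) were chosen after their values were seen. Gene symbols came from the supplied name table, with 1403 of 1405 hosts matched, and 34 introns are listed under a small RNA gene, for which the RefSeq host is named. In all, 155 introns lie only within RefSeq genes of a symbol other than the listed one, some by a newer name of the same gene. RefSeq hosts were found by position without regard to strand. Marker lists for granulosa, oocyte, theca and stroma, leukocyte, endothelial and erythroid cells were summed. Alternatives covered replicates, pairing, filters, pseudocounts, scaling and leaving out each library.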

Additional observations from a re-analysis of the deposited data

How the results depend on the processing

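The mean share difference stayed negative in every alternative run, from -4.10 (summed FPKM) to -9.18 percentage points (without untreated library 3), with exact permutation p = 0.1 at the least, for 6 separate libraries, the smallest that 3 against 3 allow. With all 6 libraries as separate replicates, calls were 15 lower for the share, 3 lower for ON, 66 higher and 18 lower for OFF, 57 higher and 25 lower for the total, and 2 lower among splicing genes. Leaving out each library in turn gave 0 to 3 shares called lower, 0 to 426 lower and 0 to 1 higher for ON, 0 to 4 lower for OFF, and 2 to 27 higher and 1 to 11 lower for the total. The same gave 334 to 671 introns lower and 21 to 87 higher without overlap, counts that 2 libraries against 3 can only raise. With both forms listed everywhere 109 were lower without overlap, and 0 and 0 totals were called. With at least 5 FPKM the OFF form gave 6 higher and 1 lower and the total 25 and 9. Quantile normalization gave 1 ON form lower and 0 and 0 totals, and median of ratios rescaling 0 and 0 totals. The causes of these shifts were not tested.

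Deviations of same-numbered libraries from their group means were weakly and positively related (r of 0.06, 0.04 and 0.12 over introns). Library 1 of one group and library 2 of the other gave as much as the libraries numbered 2, with r of 0.038 and 0.044 against 0.041. Between libraries 1 or 2 of one group and library 3 of the other, r was negative, from -0.06 to -0.09. Deviations within a group cancel out by construction, so these values are not independent of each other. Whether the numbers pair the libraries is not given, and the main fit did not pair them. With a replicate block on 4 samples 30 totals were called higher and 9 lower, and no share; on 6 libraries 86 and 47 totals, 36 and 8 OFF forms, 0 shares, against 15 without the block, and 0 ON forms, against 3. The mean share difference under the replicate block was -7.14 percentage points, which a balanced block leaves as it is by construction.

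Of 515 alternative fits of the share in 30 named introns, 0 reversed the direction, which the choice of introns without overlap largely fixes, and 12 brought the adjusted p below 0.05, 10 of them with 6 separate libraries and 2, for Clk4 and Mib2, without untreated library 3 (limma adjusted p = 0.0445 each). Of 296 fits of the 20 introns with a called total, 103 lost the call and 0 reversed. Introns of at least 70 bases, the leave-one-out counts without overlap, the length and position values and the splicing gene counts were alternatives chosen after seeing the data. Where a library 3 is left out, 1 sample remains in its group and is assumed to vary like the other group. With 2 samples per group, a share that misses the threshold is not shown to be equal, and the level under which a form goes unlisted is unknown.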

Other observations

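Other cell type markers stayed low. Leukocyte markers (10 genes) summed to 4.005, 2.96 and 7.19 FPKM after FSH and FBS and to 10.7, 8.97 and 12.6 FPKM in untreated cells. Endothelial markers (10 genes) summed to 3.38, 2.82 and 2.70 against 0.0224, 0.515 and 0.984 FPKM, and erythroid markers (6 genes) to at most 1.92 FPKM in any library.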
